A study of Bos taurus with 15 samples.

Results

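Leukocytes and the walls of gut vessels hold on to each other through a small set of genes, and 9 of them were followed through the digestive tract of Holstein cattle. The members were the genes whose symbols are ACKR1, SELE, SELP, VCAM1, ICAM1, MADCAM1, ITGA4, ITGB7 and ITGAE, 9 of the 27270 genes in the tables. The first 6 act on the vessel side and were read in barcodes with a UMI of PECAM1, an adhesion molecule of endothelium that leukocytes and platelets carry as well. The other 3 are integrin subunits and were read in barcodes with a UMI of CD3E (T cells) or MS4A1 (B cells). Single-cell RNA-seq libraries (10x Genomics, 3′ UMI counts) had been made from 11 newborn (NB) tissues: the forestomach (reticulum and omasum), the abomasum, the small intestine (duodenum, jejunum and ileum), the large intestine (cecum, colon and rectum), the liver and the parotid salivary gland. They had also been made from 4 adult (AD) tissues, namely duodenum, jejunum, cecum and colon. The labels name no treatment and give stages, not ages. The AD tissues came from 1 lactating cow and the NB tissues from 3 calves, and which calf gave which library was not given in the sources used here. With a single library for every combination of tissue and stage, differences were described and not tested, and stage, animal and dissociation cannot be told apart.

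A circulating leukocyte is first slowed by selectins on the endothelium, then stopped by integrins that bind immunoglobulin-like ligands, and then crosses the wall, mostly in small veins after the capillaries. SELP (P-selectin) and SELE (E-selectin) are the slowing molecules, ICAM1 and VCAM1 are ligands of integrins, and ACKR1 is a chemokine-binding receptor of venular endothelium. MADCAM1 is the ligand known from gut venules, where it binds the integrin of the ITGA4 and ITGB7 chains. The ITGAE chain pairs with ITGB7 in lymphocytes that lie within the epithelium, where the pair binds E-cadherin (CDH1).

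Between 2636 and 11614 barcodes per library passed the filters (119798 of 172405 in all), with a median of 3540 to 8838 UMIs each. Levels are given as CPM, the UMIs of a gene scaled to the summed UMIs of the barcodes in question, with an exact 95% Poisson interval in brackets that covers counting error only. The PECAM1 barcodes were not the same kind of cell in all libraries. In the 4 AD libraries 70.6% to 72.6% of them also had PTPRC, the pan-leukocyte gene, as did 91.4% in NB liver and 75.7% in NB salivary gland, against 0.452% to 41.9% in the 9 NB libraries from reticulum to rectum. In NB liver 80.9% of the PECAM1 barcodes fell into the myeloid marker class. Endothelial barcodes were therefore also counted by a narrower rule: a PECAM1 UMI, no PTPRC UMI, and a UMI of CDH5, CLDN5, EGFL7 or TIE1. This rule kept 132 to 2948 barcodes in each NB library from reticulum to rectum. It kept 43 in NB liver, 15 in NB salivary gland, 1 in AD duodenum, 2 in AD jejunum, 15 in AD cecum, all with lymphatic markers, and 27 in AD colon. Blood vessels of the AD tissues were thus measured in the colon only, and there thinly. Any pair of libraries shared between 1 and 35 barcode sequences, at most 0.452% of the smaller library.

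MADCAM1 (ENSBTAG00000039355) separated the forestomach from the rest of the tract. In endothelial barcodes of NB reticulum it stood at 8.31 CPM [4.30 to 14.5], and none of the 208 omasum barcodes had a UMI, where 3 UMIs would have been 3.02 CPM. NB colon had 166 CPM [140.4 to 194] and abomasum 170.1 CPM [161 to 179], and these did not differ beyond counting error. Above them came duodenum with 209.9 CPM [201 to 219.6], jejunum with 319 CPM [311 to 328] and ileum with 369 CPM [348 to 391]. Every neighbour in that order from abomasum upwards was separated by its interval. Cecum had 549 CPM [528 to 569.6] and rectum 794 CPM [771 to 817]. The glandular stomach and all parts of the intestine therefore lay above both forestomach compartments, and the lowest of these 7 libraries was 19.9-fold [11.1 to 39.4] above the reticulum. By the rule that each of the 7 be past 2-fold of both forestomach libraries, 87 of 7506 genes tested (1.16%) were higher and 0.573% lower, and MADCAM1 had the widest gap of these 87. Of the other vessel-side genes ACKR1, SELP, VCAM1 and ICAM1 were tested and did not pass, while SELE was below the 10 CPM needed. Abomasum, reticulum and omasum had been dissociated with the same enzymes and the NB intestines with a kit. Which calf gave each of them is not known, and the part of animal or dissociation in this split was not tested. Lymphatic markers (PROX1, LYVE1, MMRN1, FLT4 and CCL21) summed to 240.2 to 349 CPM in the endothelial barcodes of the forestomach and 1263 to 5096 CPM in the other 7 libraries. PROX1, MMRN1, FLT4 and CCL21 were among the 87 genes and LYVE1 was not. Endothelial barcodes with at least 2 of these markers were 7 of 321 in reticulum and 8 of 208 in omasum. They were 261 of 1646 in abomasum, 264 of 1607 in duodenum, 347 of 2948 in jejunum and 95 of 446 in ileum. Cecum had 233 of 652, colon 14 of 132 and rectum 162 of 852. Those without any lymphatic marker were 214 of 321 in reticulum, 150 of 208 in omasum and 1168 of 1646 in abomasum. Jejunum had 2242 of 2948, cecum 267 of 652 and rectum 466 of 852, and by this count the forestomach was not set apart. The 5 myeloid markers summed to 45.7 to 67.3 CPM in the forestomach, where C1QA, C1QB and CSF1R were at 0, and 82.9 to 534 CPM in the other 7. C1QA and C1QB, chains of complement made by macrophages, were among the 87 genes, and the part of either kind of cell in the split was not tested. Among endothelial barcodes without any lymphatic marker, MADCAM1 was 2.30 CPM [0.279 to 8.31] in reticulum, from 2 UMIs, and at least 182 CPM in the 7. The 7 reticulum barcodes with at least 2 such markers had no MADCAM1 UMI, so its other UMIs there lay in barcodes with exactly 1.

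The share of barcodes with MADCAM1 gave the same split. After each barcode had been thinned to 1000 UMIs, 9.11% to 30.5% of endothelial barcodes had a MADCAM1 UMI in the 7 libraries from abomasum to rectum, against 0.633% in reticulum and 0 of 207 in omasum. Unthinned shares were 17.4% to 46.1% in the 7 libraries, 3.43% in reticulum and 0 of 208 in omasum, where 3 barcodes with a UMI would have been 1.44%. In the epithelial marker class of the same 7 libraries, which should lack the gene, thinned shares were 0 to 0.639%.

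**Figure D1:**
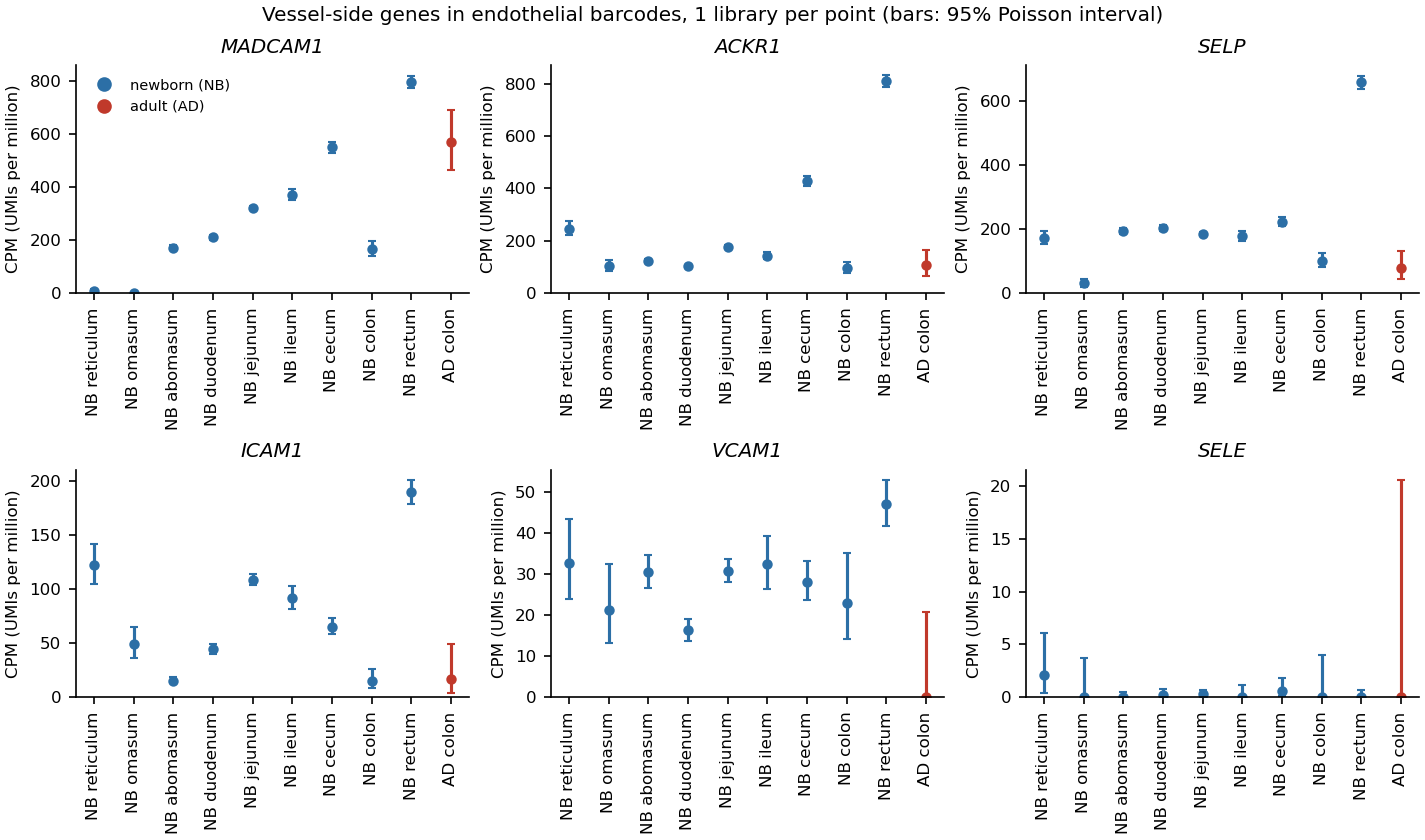
CPM of the 6 vessel-side genes (vertical axes) in endothelial barcodes of 9 NB libraries (blue) and AD colon (red), 1 library per point with its exact 95% Poisson interval. MADCAM1 lies at 0 and 8.31 CPM in the forestomach libraries and at 166 to 794 CPM in the other NB libraries.

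ACKR1 (ENSBTAG00000003220) and SELP (ENSBTAG00000020755) were present along the whole tract. ACKR1 stood at 246 CPM [221 to 273] in the endothelial barcodes of NB reticulum and 103 CPM [83.6 to 124] in omasum. From abomasum to rectum its lowest level was 95.9 CPM in colon, its median 141 CPM, and its highest 809 CPM [786 to 832] in rectum, with cecum next at 428 CPM. The forestomach therefore lay inside the range of the other libraries for ACKR1. The level in reticulum depended on which barcodes were read: in the 214 without any lymphatic marker it was 87.4 CPM [68.9 to 109]. The 7 reticulum barcodes with at least 2 such markers had no ACKR1 UMI and 1 SELP UMI. Most ACKR1 of reticulum endothelium thus lay in barcodes with exactly 1 lymphatic marker, which were not read apart. SELP stood at 172 CPM [151 to 195] in reticulum and at its lowest, 29.1 CPM [19.5 to 41.9], in omasum. Without lymphatic markers SELP in reticulum was 77.0 CPM [59.7 to 97.8], below the lowest of the other 7 libraries read in the same way, 111 CPM [88.0 to 138] in colon, with overlapping intervals. Over all endothelial barcodes from abomasum to rectum SELP had a lowest level of 100.3 CPM in colon, a median of 192 CPM and a highest level of 657 CPM in rectum. Rectum had the highest endothelial level of MADCAM1, ACKR1, SELP, ICAM1 and VCAM1 among the 9 NB libraries. Its endothelial barcodes also held the most of the 5 fibroblast markers, a summed 465 CPM against 26.3 to 304 CPM in the other 8, and the part of other cells in its values was not tested.

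Within a library the same endothelial barcodes tended to carry ACKR1, MADCAM1 and SELP. There were 7 NB libraries with at least 20 thinned endothelial barcodes with ACKR1. Barcodes with lymphatic markers were not set apart in these shares. In NB jejunum 73.2% [66.2 to 79.5, exact binomial] of the 183 barcodes with ACKR1 also had MADCAM1, against 9.81% [8.72 to 10.98] of those without ACKR1. In duodenum the shares were 71.4% and 7.72%, in ileum 75.0% and 10.0%, in rectum 67.7% and 16.7%, in cecum 59.8% and 15.8%, and in abomasum 34.6% and 7.33%. The intervals lay apart in these 6 libraries, while in reticulum, where MADCAM1 was nearly absent, the shares were 2.86% and 0.356%. SELP was found in 34.6% to 61.6% of barcodes with ACKR1 and in 6.05% to 19.6% of those without, with intervals apart in all 7 libraries, reticulum included. Of the vein markers only NR2F2 was read in this way, and of the artery markers only GJA5, and they leaned to opposite sides. NR2F2, a transcription factor of venous endothelium, was in 14.3% to 34.6% of barcodes with ACKR1 and 6.41% to 22.1% of those without, with intervals apart in 3 libraries. GJA5, a connexin of arterial endothelium, was in 0 to 0.546% and 1.70% to 5.16%, with intervals apart in 2. The intervals for VCAM1 overlapped in all 7, and ICAM1 was more often found with ACKR1 in 2, duodenum (14.3% against 2.11%) and jejunum (29.0% against 5.01%).

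**Figure D2:**
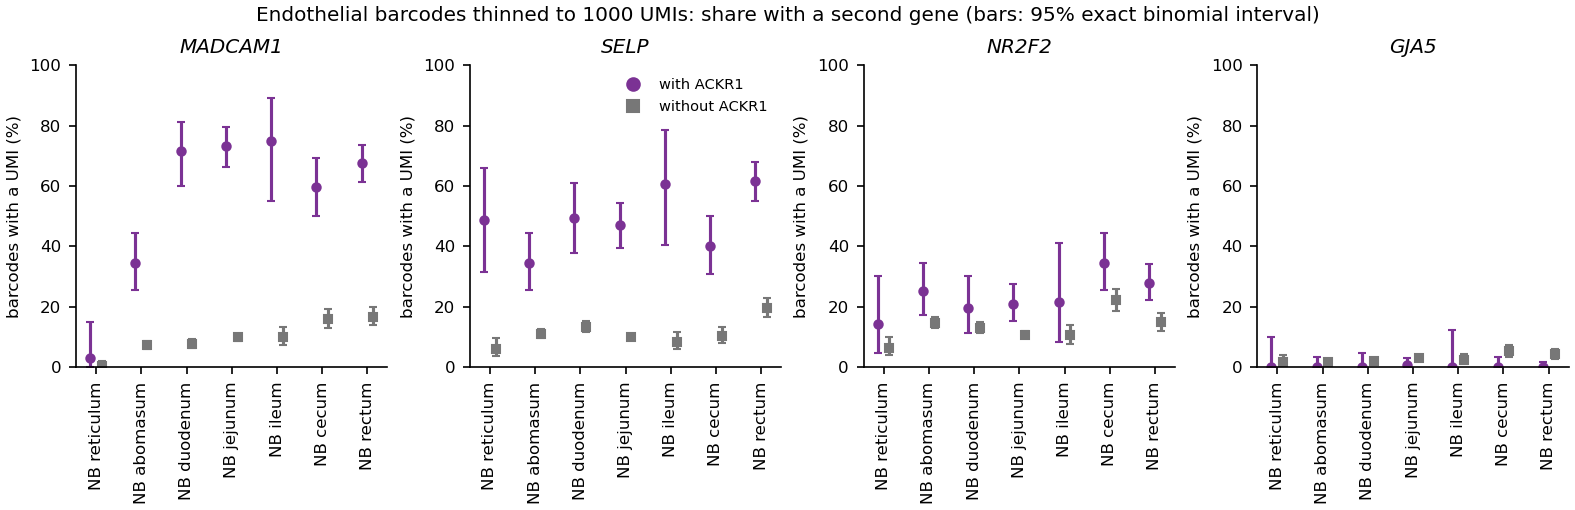
Percent of endothelial barcodes, thinned to 1000 UMIs, that had a UMI of MADCAM1, SELP, NR2F2 or GJA5 (vertical axes), among barcodes with ACKR1 (purple circles) and without (grey squares) in 7 NB libraries, with exact 95% binomial intervals. MADCAM1 was in 2.86% to 75.0% of barcodes with ACKR1 and 0.356% to 16.7% of those without, and GJA5 was in at most 0.546% of those with ACKR1.

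Endothelial barcodes with at least 2 lymphatic markers had less of these genes than those with none in most places. The 6 NB libraries with at least 50 barcodes of each kind were abomasum, duodenum, jejunum, ileum, cecum and rectum. In ileum MADCAM1 was 24.5 CPM [14.0 to 39.8] with lymphatic markers and 466 CPM [437 to 496] without, and in jejunum 27.5 and 369 CPM. In duodenum the values were 41.8 and 245 CPM, and in abomasum 46.0 and 182 CPM. Cecum (222 and 456 CPM) and rectum (469 and 619.96 CPM) kept the direction with a smaller gap. ACKR1 followed the same order in 5 of the 6, from 0 against 163 CPM in ileum to 209 against 352 CPM in cecum, but in rectum 542 CPM [502 to 584] and 555 CPM [528 to 583] did not differ beyond counting error. SELP was lower with lymphatic markers in all 6, for example 10.7 against 224 CPM in ileum and 332 against 592 CPM in rectum.

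SELP was not confined to endothelium. Barcodes were sorted into classes by which of 8 lists of 5 markers had the most members detected, and the fibroblast class was then limited to barcodes without PECAM1 and PTPRC, a limit set after the levels had been seen. In these barcodes SELP stood at 160 CPM in NB abomasum, 157 CPM in duodenum, 118 CPM in jejunum, 88.3 CPM in ileum, 84.2 CPM in cecum, 198 CPM in colon and 161 CPM in rectum. AD colon had 66.3 CPM over 120 such barcodes. The 151 barcodes of NB reticulum, 428 of omasum and 65 of salivary gland had no SELP UMI, where the floor of 3 UMIs would have been 4.82 CPM in reticulum. SELP in fibroblast-class barcodes thus showed the same border between forestomach and abomasum as MADCAM1 in vessels. The mural class was set by RGS5, ACTA2, MYH11, TAGLN and NOTCH3, which do not tell cells around vessels from other smooth muscle. This class did not follow that border between forestomach and abomasum. It had SELP at 142 CPM [117 to 172] in NB duodenum, in 28.1% of 171 barcodes, and at 58.0 CPM in ileum, 35.8 CPM in rectum and 17.7 CPM in jejunum. In abomasum it had 1 UMI in 241 barcodes (1.18 CPM), and none in the 36 of colon, 43 of cecum, 48 of reticulum and 50 of omasum. In the fibroblast barcodes ACKR1 reached at most 4.92 CPM and MADCAM1 at most 5.83 CPM. GP9 and GP1BA, which mark platelets, were at 0 in all 11 libraries with 50 fibroblast barcodes, and ITGA2B, which marks them too, was at most 2.26 CPM. The platelet markers PF4 and PPBP were not found by symbol and were not read. After thinning to 1000 UMIs, 6.67% to 16.3% of the fibroblast barcodes of the 8 libraries with SELP had a UMI of it, against 0 to 1.15% in the epithelial class. Unthinned, the shares were 20.8% to 50.0% at a median of 3535 to 7590.5 UMIs, and 0 to 5.73% in the epithelial class at a median of 8393 to 13394 UMIs.

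The fibroblast barcodes with SELP differed from the others of their library in further genes. PDGFRA, a growth factor receptor of mesenchyme, was 1702 CPM in those with SELP and 553 CPM in those without in NB abomasum, 2045 and 390.5 CPM in cecum, and 896 and 235 CPM in rectum. It was higher with SELP in all 8 libraries. EDNRB, an endothelin receptor, was 466 and 118 CPM in NB colon and 516 and 122 CPM in AD colon, and HOPX was 467 and 44.2 CPM in NB abomasum. Both were higher with SELP in the same 8 libraries and were chosen after their values had been seen. COL1A2, a collagen chain, was lower with SELP in the same 8, for example 2734 against 7522 CPM in rectum.

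**Figure D3:**
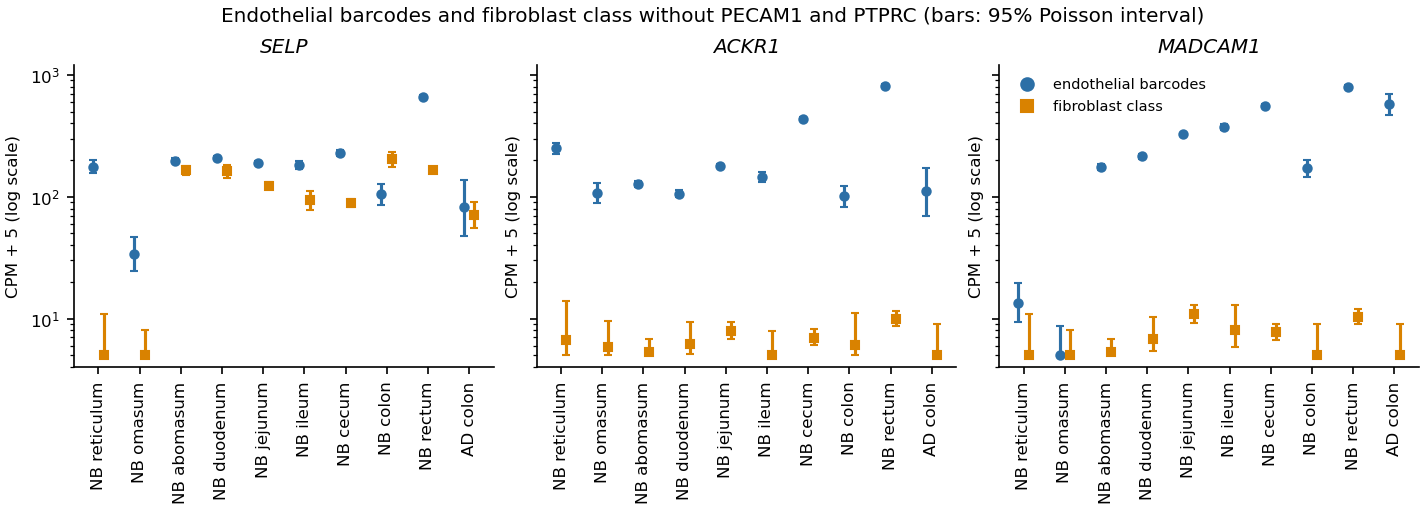
CPM plus 5 on a log axis of SELP, ACKR1 and MADCAM1 in endothelial barcodes (blue circles) and in the fibroblast class without PECAM1 and PTPRC (orange squares), 1 library per position, with exact 95% Poisson intervals. SELP is at 66.3 CPM or above in both kinds of barcode from abomasum to rectum and in AD colon, and at 0 in fibroblast barcodes of reticulum and omasum, where ACKR1 and MADCAM1 are at most 4.92 and 5.83 CPM in fibroblast barcodes of any library.

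ICAM1 (ENSBTAG00000010303), the ligand of the ITGB2 integrins, was 123 CPM [105 to 142] in endothelial barcodes of NB reticulum and 49.2 CPM in omasum. From abomasum to rectum the lowest level was 15.3 CPM in abomasum and colon, the median 65.4 CPM, and the highest 189.8 CPM in rectum. It was not an endothelial gene alone, since the myeloid class held 32.3 to 230.1 CPM in the same 7 libraries. VCAM1 (ENSBTAG00000007773), the other ligand of the ITGA4 chain, was 16.2 to 46.9 CPM in the endothelial barcodes of the 9 NB libraries. The fibroblast class held 113 to 355 CPM of VCAM1 from abomasum to rectum and the myeloid class 49.7 to 218 CPM. Of all VCAM1 UMIs in these 7 libraries, 2.67% to 25.1% were in the endothelial class, against 89.9% to 97.6% of the ACKR1 UMIs. In the 4 AD libraries the myeloid class held 105 to 164 CPM of VCAM1.

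SELE (ENSBTAG00000007307), which endothelium makes in inflammation, was hardly found. It had 3 UMIs in the 321 endothelial barcodes of NB reticulum (2.08 CPM), 4 in the 2948 of jejunum (0.256 CPM), 3 in cecum, 2 in duodenum and 0 in the other 5 NB libraries. NB colon had the highest floor of these 9 libraries, 3.27 CPM for 3 UMIs, so lower levels were not detectable there.

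**Figure D4:**
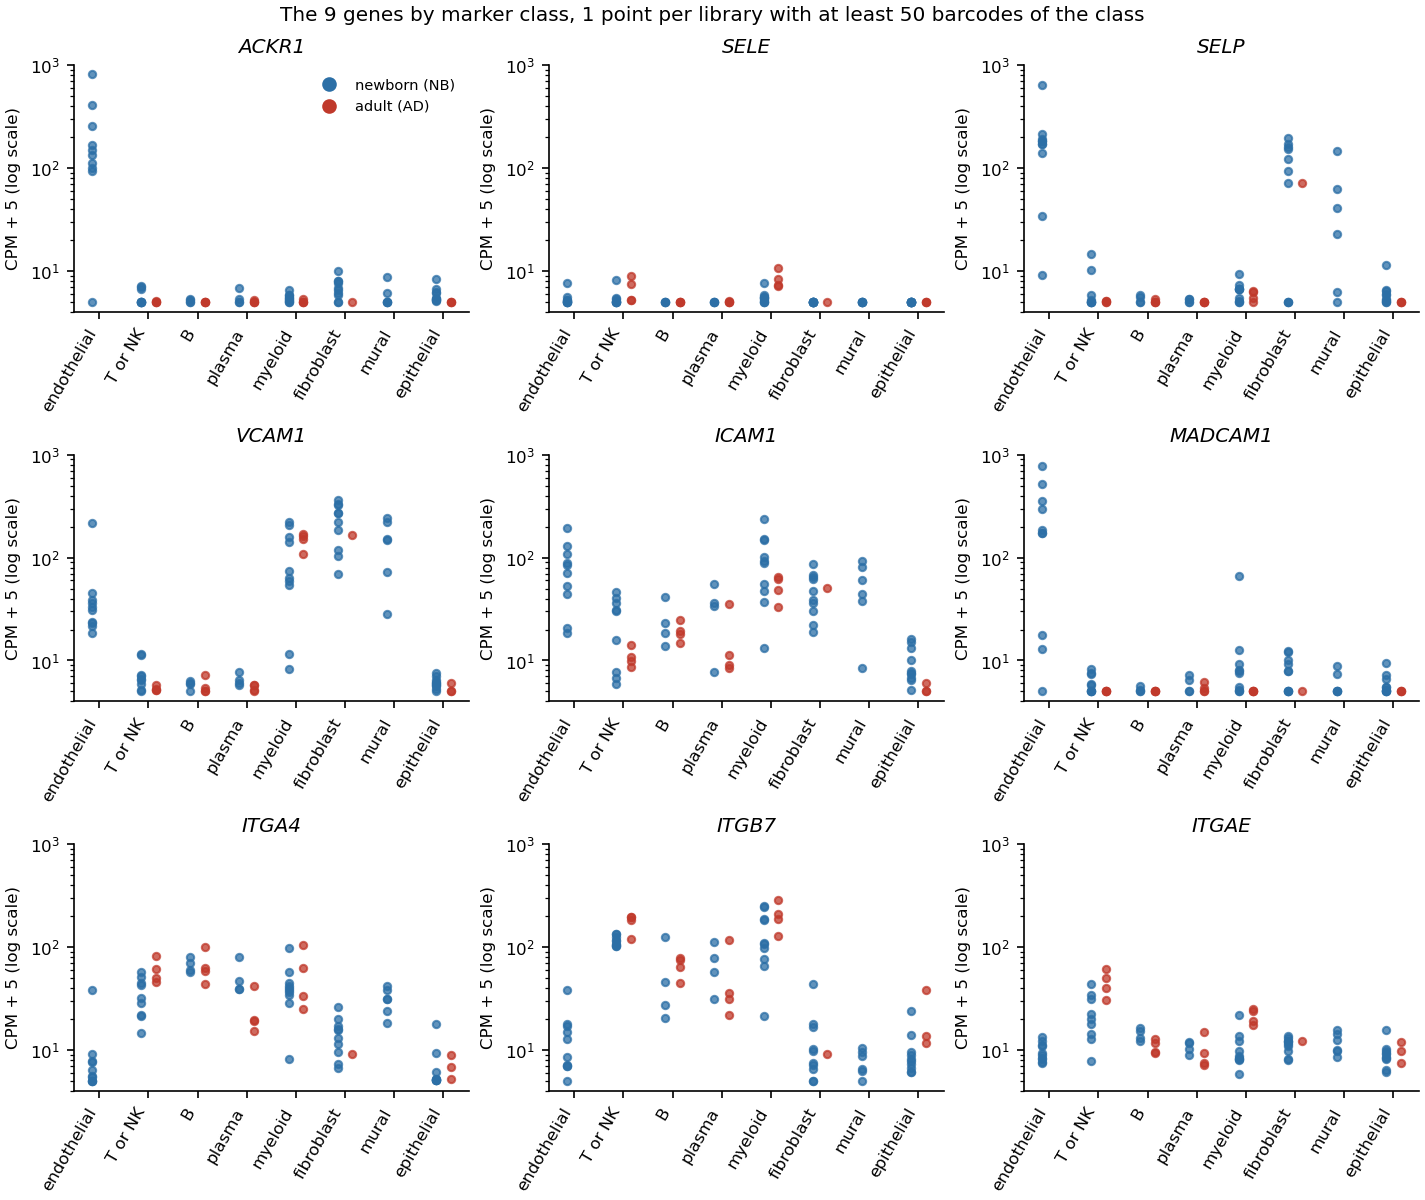
CPM plus 5 on a log axis of the 9 genes in 8 marker classes, 1 point per library with at least 50 barcodes of the class, NB in blue and AD in red. In the 7 NB libraries from abomasum to rectum the endothelial class held 89.9% to 97.6% of ACKR1 UMIs and 81.4% to 97.0% of MADCAM1 UMIs, and SELP was split between the endothelial class (40.8% to 75.6%) and the fibroblast class (10.2% to 49.9%).

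Between stages, the PECAM1 barcodes of the AD tissues had less of the vessel-side genes. A pair of gene and tissue was counted where the CPM differed by 2-fold or more (with 5 CPM added to both) and the Poisson intervals lay apart. Of 24 pairs 20 were tested, and 13 were lower in AD and 0 higher, where 16.8% and 6.71% of all tested genes were lower and higher over the 4 tissues. In the narrower endothelial barcodes, of which the AD tissues had 1 to 27, the count was 4 lower and 3 higher, beside 2.45% and 6.19% of tested genes. Of the 3 higher, 2 were in duodenum, where a single AD barcode of 1050 UMIs was left, and 1 in colon. Of the 4 lower, 1 was in jejunum, from 2 AD barcodes, and 3 were in cecum. There all 15 AD barcodes had at least 2 lymphatic markers, against 233 of 652 in NB. In PECAM1 barcodes of duodenum 5 members were lower (29.6% of tested genes lower, 6.65% higher), with 3 for jejunum (15.3% and 6.71%), 4 for cecum (13.5% and 6.46%) and 1 for colon (8.65% and 7.01%). ACKR1 had no UMI in the PECAM1 barcodes of AD duodenum, jejunum and cecum, against 70.8, 103 and 168 CPM in NB, which is at least 69.5-fold, 91.8-fold and 44.0-fold lower. SELP was 0.339 against 143 CPM in duodenum, 0.372 against 109 CPM in jejunum and 1.27 against 86.3 CPM in cecum, each AD value from 1 UMI. These ratios were 420.2-fold [75.3 to 16607], 292-fold [52.3 to 11530] and 68.1-fold [12.2 to 2690] lower in AD. MADCAM1 was 1.02 against 147 CPM in duodenum, from 3 AD UMIs, a ratio of 144-fold [49.2 to 699]. It had no UMI in AD jejunum and cecum, against 189 and 210.1 CPM, at least 169-fold and 55.2-fold lower. These 3 genes were thus nearly absent from the AD barcodes outside the colon. In colon MADCAM1 was 114 against 55.7 CPM, 2.05-fold [1.64 to 2.57] higher in AD, but short of 2-fold once 5 CPM had been added, and its 153 AD UMIs lay in 9 of 196 barcodes. By share of barcodes AD colon was at 4.59% [2.12 to 8.54] against 8.16% [5.44 to 11.6] in NB, which overlap. ICAM1 was lower in duodenum (6.44 against 57.8 CPM), cecum (16.5 against 109 CPM) and colon (20.9 against 89.6 CPM), and VCAM1 in duodenum alone (8.82 against 52.3 CPM). The PECAM1 barcodes with PTPRC showed these differences too. In them ICAM1 was 9.21 against 100 CPM in duodenum, 19.4 against 137 CPM in cecum and 19.2 against 146 CPM in colon. VCAM1 in duodenum was 13.8 against 144 CPM. The tested members had a median log2 ratio of -3.92 in duodenum, -4.40 in jejunum, -3.86 in cecum and -0.47 in colon. Over all tested genes the medians were -0.48, -0.18, -0.08 and -0.07, so values in duodenum stand beside a general shift. PTPRC was in 70.6% to 72.6% of the AD PECAM1 barcodes. The 5 endothelial markers (PECAM1, CDH5, CLDN5, EGFL7 and TIE1) summed to 169 to 851 CPM in the AD PECAM1 barcodes. In the NB ones of the same tissues the sum was 1312 to 2326 CPM. These sums include PECAM1, the gene that defines the barcodes, so part of each is set by the selection. For ACKR1, SELP and MADCAM1, fewer endothelial cells and less RNA per cell cannot be told apart in the PECAM1 barcodes. For ICAM1 and VCAM1, which PECAM1 barcodes with PTPRC carried too, the part of each kind of cell was not tested.

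Of 36 pairs of the partner genes on the vessel side 30 were tested, and 19 were lower and 1 higher, beside the same 16.8% and 6.71% of all tested genes. The first were CD34 (0 against 301 CPM in duodenum), JAM2 (1.02 against 303 CPM) and ESAM (2.04 against 157 CPM), all adhesion molecules of endothelium. Of 40 pairs of NF-kB response genes, 39 were tested, and 18 were lower and 2 higher, beside the same 16.8% and 6.71%. In duodenum 4 of 10 were lower, near the 29.6% of all tested genes there, while jejunum had 5 of 10 (15.3%), cecum 6 of 10 (13.5%) and colon 3 of 9 tested (8.65%). One of them was the chemokine CCL2 at 4.84 against 204 CPM in jejunum. Both lists were read in PECAM1 barcodes, whose kinds of cell differed between stages, and the part of this in the counts was not tested.

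Colon was the only tissue with more than 15 endothelial barcodes in both stages. MADCAM1 was 569 CPM [464 to 691] in the 27 AD barcodes and 166 CPM [140.4 to 194] in the 132 NB barcodes, 3.44-fold [2.65 to 4.45] higher in AD, where 5.43% of all tested genes passed the same rule upwards and 2.8% downwards. The 102 UMIs of AD colon came from 7 barcodes, and the share of barcodes with MADCAM1 was 25.9% [11.1 to 46.3] in AD and 17.4% [11.4 to 25.0] in NB, which overlap. ACKR1 (106 and 95.9 CPM, 1.11-fold [0.636 to 1.83]) and SELP (78.1 and 100.3 CPM, 0.779-fold [0.410 to 1.37]) did not differ beyond counting error. ICAM1, lower in the PECAM1 barcodes of AD colon, was 16.7 CPM in AD from 3 UMIs and 15.3 CPM in NB, a ratio of 1.10-fold [0.202 to 3.93]. VCAM1 had no UMI in the AD barcodes and 22.9 CPM in NB. The kit used for AD colon was not the one used for NB colon.

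On the leukocyte side, the integrin genes in CD3E or MS4A1 barcodes were higher in AD in 5 of 12 pairs and lower in 0, where 11.4% and 10.8% of tested genes were higher and lower. By tissue these were 1 pair in duodenum (14.6% higher, 11.8% lower), 1 for jejunum (9.58% and 8.06%), 1 for cecum (9.05% and 11.6%) and 2 for colon (12.5% and 11.6%). The mix of both kinds of barcode changed with stage: NB colon had 817 with CD3E and 1088 with MS4A1, and AD colon 7512 and 280. The median log2 ratio of the 3 integrins was 0.08 in duodenum, 0.66 in jejunum, 0.37 in cecum and 1.53 in colon, beside 0.15, 0.20, 0.10 and 0.04 over all tested genes. In CD3E barcodes alone 7 of 12 pairs were higher and 0 lower, beside 10.3% and 9.93% of tested genes. The 7 were 1 in duodenum (13.2% higher, 11.3% lower), 3 for jejunum (8.94% and 7.91%), 1 for cecum (7.86% and 11.8%) and 2 for colon (11.1% and 8.76%). The median log2 ratio in CD3E barcodes was 0.53 in duodenum, 1.14 in jejunum, 0.56 in cecum and 1.02 in colon. Fewer of the CD3E barcodes met the T or NK marker class in NB. Of the CD3E barcodes 66.3% fell into it in NB duodenum, 56.7% in jejunum, 70.8% in cecum and 79.3% in colon. The 4 AD libraries had 85.2% to 96.6%. Many of the rest met no class: 21.4%, 24.0%, 17.7% and 11.5% of the CD3E barcodes in these NB libraries, and 1.45% to 5.26% in AD. Within the T or NK class, a comparison added after the data had been seen, 4 of 12 pairs were higher in AD and 0 lower, beside 10.8% and 8.25% of tested genes. These were ITGA4 in duodenum (12.1% higher, 8.03% lower), ITGA4 and ITGAE in jejunum (11.5% and 5.66%) and ITGAE in cecum (8.53% and 11.2%), and 0 pairs in colon (11.1% and 8.08%). In colon the 3 integrins were still 1.90-fold to 2.17-fold higher in AD, short of 2-fold once 5 CPM had been added. Their median log2 ratio in the T or NK class was -0.16 in duodenum, 1.17 in jejunum, 0.45 in cecum and 0.94 in colon. ITGB7 (ENSBTAG00000018993) had a lowest level of 66.4 CPM in NB ileum, a median of 89.5 CPM and a highest level of 116 CPM in NB liver over the 9 NB libraries with at least 50 CD3E barcodes. AD duodenum had 112 CPM [108 to 116], AD cecum 168 CPM, AD colon 185 CPM and AD jejunum 194 CPM [188 to 200.6]. AD duodenum therefore lay within the NB range and the other 3 above it. ITGA4 (ENSBTAG00000009256) was 12.8 to 37.8 CPM in the 7 NB libraries from abomasum to rectum, and higher in NB liver (53.4 CPM) and NB salivary gland (51.2 CPM). In AD it was 73.9 CPM in duodenum, 48.6 CPM in jejunum, 38.9 CPM in cecum and 54.7 CPM in colon. In cecum the stages did not differ beyond counting error (38.9 and 37.8 CPM), while duodenum and jejunum were 3.77-fold and 3.63-fold higher in AD.

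ITGAE (ENSBTAG00000015264) had a median of 15.4 CPM in the CD3E barcodes of the 9 NB libraries, from 7.20 CPM in liver to 23.5 CPM in duodenum. The AD values were 24.6 CPM in duodenum, 31.7 CPM in jejunum, 42.1 CPM in cecum and 53.6 CPM in colon. Every AD library lay above every NB library in these barcodes, but AD duodenum [22.7 to 26.6] overlapped NB duodenum [12.1 to 41.0, 98 barcodes], NB abomasum [17.0 to 31.5] and NB colon [18.8 to 27.4]. Cecum had the largest ratio between stages, 5.64-fold. Within the T or NK class the order did not hold: NB duodenum had 38.9 CPM [20.1 to 68.0, 68 barcodes], NB abomasum 28.9 CPM and NB colon 26.0 CPM, all above the 25.3 CPM of AD duodenum but with overlapping intervals. The other 3 AD libraries had 35.1 to 56.4 CPM there.

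ITGAE differed between CD3E barcodes with CD8A only and those with CD4 only. In AD cecum these were 2717 and 958 of the 7533 CD3E barcodes. They held 36.5% and 2.39% of the ITGAE UMIs of that library, and CD3E barcodes with neither or both coreceptors were not read apart. In AD colon ITGAE was 65.4 CPM in CD3E barcodes with CD8A and without CD4, and 7.30 CPM in those with CD4 and without CD8A, 8.95-fold [6.44 to 12.8]. The ratio was 7.71-fold in AD duodenum, 6.22-fold in AD jejunum and 4.68-fold in AD cecum. Of all tested genes, 1.47%, 2.12%, 2.33% and 2.59% were higher in the CD8A barcodes by the same rule in AD duodenum, jejunum, cecum and colon, all from 1 animal, and 2.39%, 5.18%, 3.31% and 3.98% were lower. In NB colon ITGAE was 24.2 against 6.42 CPM and in NB rectum 21.6 against 7.04 CPM, both counted (2.56% and 5.12% of tested genes), while NB cecum (15.01 and 3.66 CPM) and NB liver (9.66 and 2.98 CPM, the latter from 1 UMI) had overlapping intervals. In cecum and colon the CD4 barcodes had 3.66 to 9.38 CPM in either stage, and the CD8A barcodes 15.01 to 24.2 CPM in NB and 43.9 to 65.4 CPM in AD. NB salivary gland showed no split, at 17.5 CPM with CD8A and 20.7 CPM with CD4. ITGA4 was counted the other way in NB cecum (25.0 CPM with CD8A, 58.0 CPM with CD4) and NB liver (49.5 and 116 CPM), where 4.24% and 6.04% of tested genes were lower with CD8A. In AD it was 0.504-fold [0.430 to 0.590] with CD8A in jejunum, 0.539-fold [0.460 to 0.633] in cecum and 0.491-fold [0.438 to 0.550] in colon. These were short of 2-fold once 5 CPM had been added. Only NB salivary gland had more ITGA4 with CD8A, at 1.12-fold [0.910 to 1.37]. ITGB7 differed by less than 2-fold in all 9 libraries compared.

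**Figure D5:**
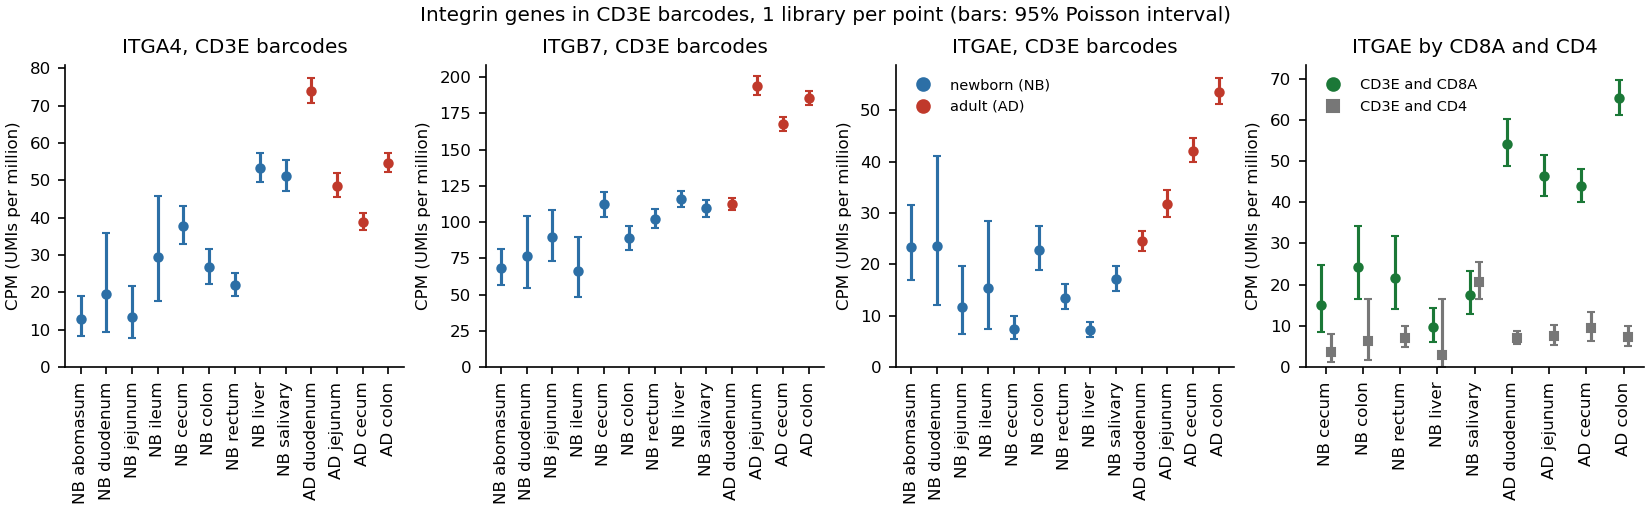
CPM of ITGA4, ITGB7 and ITGAE in CD3E barcodes of 9 NB (blue) and 4 AD (red) libraries, and of ITGAE in CD3E barcodes with CD8A only (green circles) or CD4 only (grey squares) in 9 libraries, with exact 95% Poisson intervals. All 4 AD points of ITGAE lie at 24.6 CPM or above and all NB points at 23.5 CPM or below, and the CD8A points lie above the CD4 points in all libraries but NB salivary gland.

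In MS4A1 barcodes ITGB7 was lowest in the libraries with most of them. The 4070 of NB ileum had 15.5 CPM [14.0 to 17.1] and the 1088 of NB colon 23.2 CPM [19.9 to 26.9], against 49.1 CPM in NB salivary gland and 37.4, 74.5, 58.0 and 66.9 CPM in AD duodenum, jejunum, cecum and colon. ITGA4, its partner chain, was at 47.0 and 47.5 CPM in the same NB ileum and colon barcodes and at 30.3 to 62.4 CPM in AD. NB jejunum (159 CPM), cecum (142 CPM), rectum (133 CPM) and liver (122 CPM) had more ITGB7. Of their MS4A1 barcodes 15.9%, 19.0%, 24.1% and 33.7% were in the B class, against 66.9% in NB ileum and 71.0% in NB colon. ITGB7 was as high over all barcodes of the B class, with or without MS4A1. It was 140 CPM in the 14 barcodes of NB jejunum and 143 CPM in the 43 of cecum. Rectum had 115 CPM in 40 and liver 122 CPM in 87, against 15.6 CPM in ileum and 22.2 CPM in colon. MS4A1 barcodes outside the B class in NB jejunum had no UMI of the B cell gene CD79A. They had BATF3, a transcription factor of dendritic cells, at 1070.3 CPM and CLEC9A, a dendritic cell receptor, at 284 CPM. The 14 of the B class there had 986 CPM of BATF3 and 257 CPM of CLEC9A. In the B class, the MS4A1 barcodes of NB cecum, rectum and liver had 784, 831 and 670 CPM of BATF3 and 84.6, 37.0 and 161 CPM of CD79A. The MS4A1 barcodes of the B class in NB ileum had 10.6 CPM of BATF3, 1.99 CPM of CLEC9A and 557 CPM of CD79A. BATF3 and CLEC9A were chosen after their values had been seen. By MS4A1 barcodes, 2 of 12 integrin pairs were higher in AD and 4 lower (12.2% and 12.4% of tested genes), and 3 of the 4 were ITGB7 in duodenum (15% higher, 14.2% lower), jejunum (9.99% and 14.2%) and cecum (17.6% and 12.5%). NB duodenum had 18 MS4A1 barcodes, 2 of them in the B class. ITGB7 was higher in AD colon, where 6.41% and 8.68% of tested genes were higher and lower.

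Myeloid barcodes carried ITGB7 as well. The myeloid class had 245 CPM in NB duodenum, 243 CPM in NB jejunum and 284 CPM in AD jejunum, beside 129.7, 97.6 and 193 CPM in the T or NK class. In NB reticulum, where 56 barcodes made up the myeloid class, it was 16.2 CPM. ITGB1, the other chain that pairs with ITGA4, was 430.5 to 597 CPM in the endothelial class from reticulum to rectum and 55.0 to 180.4 CPM in the T or NK class. Of 44 pairs of the leukocyte-side partners in CD3E or MS4A1 barcodes, 37 were tested, and 13 were higher in AD and 2 lower, beside 11.4% and 10.8% of all tested genes. In CD3E barcodes alone the same list had 9 higher and 6 lower, beside 10.3% and 9.93%, and in colon 3 were higher in place of 6. ITGB1 was counted in the CD3E or MS4A1 barcodes of colon (176 against 70.2 CPM), but not in its CD3E barcodes alone (182 against 102 CPM). CDH1, the epithelial ligand of the ITGAE and ITGB7 pair, was 75.0 to 199 CPM in the epithelial class from NB abomasum to rectum. In AD jejunum, cecum and colon it was 259.8 to 448 CPM. CDH1 is itself a marker of that class, so its levels there are partly set by the selection.

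The genes most like a member across libraries were ranked by Pearson's r of log2(CPM + 5), as a description. In PECAM1 barcodes of all 15 libraries ACKR1 was most like SELP (r = 0.96), then SERTM1 and SERPINH1 (both r = 0.95), and SELP was most like PDLIM1 (r = 0.96). ICAM1 had ALYREF (r = 0.95) as its nearest gene and MADCAM1 had EIF4G2 (r = 0.92). These libraries differed in the share of endothelial barcodes, which all of these values share. In the endothelial barcodes of the 9 NB libraries, a comparison added after the data had been seen, MADCAM1 was nearest to SPON2 (r = 0.98) and ACKR1 to REXO2 (r = 0.97). ITGB7 in CD3E or MS4A1 barcodes of 13 libraries was nearest to ZMIZ1 (r = 0.97).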

How the data were processed

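The authors aligned the reads with Cell Ranger 3.1.0 (per the submitters' processing notes) to the ARS-UCD1.2 cattle genome and deposited 1 matrix of UMI counts per library, 15 in all, not normalized. The annotation was not given in the sources used here, and no coordinates were used. Muscle layers had been removed before dissociation. NB reticulum, omasum and abomasum were digested with 1 enzyme mix, the NB intestines with a propria kit, AD duodenum and cecum with a lamina propria kit of the same maker for the same time, and AD jejunum and colon with a multi-tissue kit. The NB stomach and intestinal tissues had first been incubated with EDTA and then trypsin, steps not given for AD. Dead cells were removed where viability was low. All of these steps can change which cells are recovered.

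Kept barcodes had between 500 and 4000 genes, fewer than 50000 UMIs and a mitochondrial share below 40%, and doublets were scored against 2 simulated doublets per cell (30 principal components, 2000 variable genes) and removed at 0.8% per 1000 cells. Python 3.11.15, NumPy 2.4.6, SciPy 1.17.1, pandas 2.3.3, scikit-learn 1.9.0 and matplotlib 3.10.9 were used. UMIs were summed per library over the barcodes of a set and divided by their total (CPM). Intervals are exact 95% Poisson intervals for CPM and exact Clopper-Pearson intervals for shares, and the floor is 3 counts. A barcode went to the marker class of which it held the most of 5 markers, at least 2 and without a tie. Genes with a mean of at least 10 CPM over the groups compared were tested against the 2-fold rule with a pseudocount of 5 CPM. With 1 library per tissue and stage there is no p-value. The rule was tested on simulated counts, which hold counting error only.

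Total UMIs were 17707625 to 129458578 per library. The text names the 9 members, at most 4 genes of the partner and NF-kB lists by the largest log2 ratio, ITGB1, CDH1, the 3 genes most like each member of at least 50 CPM, of which the nearest are printed, and the marker genes; genes outside this rule are marked in the text. The members and lists were chosen with earlier results of these data known. Doublets, the gene limit, the mitochondrial limit, the UMIs of the defining gene, the pseudocount, the scaling, the filter on low values and the definitions of the barcode sets were varied.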

Additional observations from a re-analysis of the deposited data

Results flagged for a closer look

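MADCAM1 went opposite ways between stages in different tissues: in PECAM1 barcodes the log2 ratio of AD over NB was 0.98 in colon, -4.65 in duodenum, -5.28 in jejunum and -5.43 in cecum. By share of PECAM1 barcodes with MADCAM1, colon was 4.59% in AD and 8.16% in NB, with overlapping intervals. ITGB7 also went opposite ways, in MS4A1 barcodes, with log2 ratios of 1.35 in colon, -2.03 in duodenum, -1.04 in jejunum and -1.22 in cecum. In each case the counting intervals of the ratios in colon and in the other tissues lay on opposite sides of 0, and the difference between tissues was not tested, since each tissue and stage had 1 library. Beside MADCAM1, 27 of the 196 PECAM1 barcodes of AD colon met the narrower endothelial rule, against 1 of 452 in AD duodenum, 2 of 329 in AD jejunum and 15 of 136 in AD cecum. Beside ITGB7, 71.0% of the MS4A1 barcodes were in the B class in NB colon, against 11.1% of 18 in NB duodenum, 15.9% in NB jejunum and 19.0% in NB cecum. The part of either in the difference was not tested.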

How the results depend on the processing

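No paired analysis was possible because the labels give no replicate numbers, and the 4 tissues with both stages are not replicates, since all AD libraries came from 1 cow. With 1 library per tissue and stage no replicate could be left out. Vessel-side pairs higher in AD numbered 0, and 1 with under 10% mitochondrial UMIs, with at least 2 PECAM1 UMIs, with a pseudocount of 1 CPM or after centring. In the narrower endothelial barcodes they were 3, with 4 lower in place of 13 (6.19% and 2.45% of tested genes), and in the endothelial class 3, with 5 lower (7.1% and 2.91%). The other settings gave 13 to 16 lower, beside 10% to 19.4% of tested genes. In duodenum, where 1 AD barcode was left, the log2 ratios of these sets reversed to 2.20 and 2.37 for SELP, 5.50 and 5.69 for VCAM1 and 3.74 and 3.94 for MADCAM1, and in colon to 0.10 and 0.41 for ICAM1. Integrin pairs in MS4A1 barcodes alone were 2 higher and 4 lower in place of 5 and 0, with ITGAE at -0.58 in cecum and -0.29 in colon, and in the T or NK class, a set added after seeing the data, 4 higher and 0 lower. For shares of CD3E or MS4A1 barcodes with a UMI, 2 pairs were lower in AD unthinned, ITGA4 and ITGB7 in cecum, where 77.8% of tested genes were lower, and 0 after thinning, where 20.2% were. The MADCAM1 gap of 19.9-fold, whose alternatives were chosen after seeing the data, was 79.0-fold [21.8 to 653] without lymphatic markers and 7.83-fold in all PECAM1 barcodes, and 18.0-fold to 21.7-fold otherwise. Reticulum had 12 MADCAM1 UMIs by the first rule and 2 without lymphatic markers. Of 396 values per gene, tissue and setting, 321 stayed within the counting error of the first value, 65 moved and 10 reversed. The cause was not tested. The AD vessels rest on 1 to 27 endothelial barcodes per tissue.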

Other observations

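MADCAM1 was also found outside PECAM1 barcodes in NB ileum, in 92 barcodes whose genes were looked at after their values had been seen. They had APOE, a lipid carrier, at 95708 CPM against 6544 CPM in the barcodes with neither gene, the lysosomal protease CTSD at 24146 against 1433 CPM, and TIMD4, a macrophage receptor, at 4199 against 313 CPM. Endothelial CLDN5 was 173 against 8.97 CPM and CXCL13, a chemokine of follicular dendritic cells, 78.6 against 22.7 CPM, while CR2, another gene of those cells, was 20.0 against 69.1 CPM. The myeloid class of NB ileum had 61.9 CPM of MADCAM1, against at most 7.57 CPM in that class of the other libraries with 50 such barcodes.

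SELE, nearly absent from vessels, had UMIs in 89 of 7533 CD3E barcodes of AD cecum and 67 of 7512 of AD colon. Compared with the other CD3E barcodes of the library, these had KLRJ1, a lectin-like receptor gene, at 6084 against 448 CPM in cecum and 4105 against 432 CPM in colon. FCER1G, an Fc receptor chain, was 1979 against 253 CPM and 1498 against 204 CPM. CD4 had 0 UMIs in those of cecum and 1 in those of colon. KLRJ1 and FCER1G were chosen after their values had been seen.

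NKX2-3, a transcription factor of gut mesoderm, showed the same border as MADCAM1 in endothelial barcodes and was chosen after its values had been seen. It was 24.2 CPM in NB reticulum and 13.1 CPM in omasum, 124 to 171 CPM from abomasum to rectum and 313 CPM in AD colon.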
